A study of Homo sapiens with 6 samples.

Results

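A set of 10 genes that FOXO transcription factors are known to induce were followed in A431 cells, a human epidermoid carcinoma line known for its abundant epidermal growth factor receptor (EGFR). They are the repressor BCL6, the thioredoxin inhibitor TXNIP, and FBXO32, GABARAPL1, IRS2, CITED2, DDIT4, HBP1, CCNG2 and PIK3IP1. The members were taken by gene symbol from the annotation of the array, with the brightest probe set standing for a gene. All 10 were found, each with a single probe set, among 17687 named genes and 21448 transcript probe sets. The study held 6 arrays in 3 groups of 2, and every culture had been starved for 24 h after growth in 10% serum. The EGF plus gefitinib group received 100 ng/ml epidermal growth factor (EGF) together with 10 µM gefitinib, which blocks the kinase of EGFR. The EGF group received 100 ng/ml EGF alone, and the control group received neither. Cells were harvested at 30 min according to the labels, in which the order of the additions is not stated. Replicates are labelled biological without mention of separate cultures, and p-values therefore cover the spread between these samples alone, which may be technical.

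FOXO factors are held in the cytoplasm when AKT phosphorylates them downstream of growth factor receptors and phosphatidylinositol 3-kinase (PI3K), and they move to the nucleus and activate transcription when that signal is withdrawn. Their targets slow the cell cycle, supply autophagy and protein breakdown, and lower or restore sensitivity to growth factors. In epithelial tumour cells, the EGFR is one of the receptors that feed PI3K and AKT.

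The promoters of 9 members were in the RefSeq promoter table (GRCh38.p14), which gave 15 windows of 300 bases, each with 250 bases before and 50 bases from a start site on. The letters searched, on both strands, were the FOXO motif GTAAACA, which reads as TGTTTAC on the opposite strand, and a variant of it, CAAAACA, which reads as TGTTTTG there. The E-box CACGTG, which reads the same on both strands, was searched as well. These motifs do not overlap one another in the matches found. GTAAACA was present in 3 of the 15 member windows, those of TXNIP, HBP1 and PIK3IP1, and in 3.42% of all 35116 windows of the table. CAAAACA was present in 2 of the 15, those of GABARAPL1 and IRS2, and in 4.92% of all windows. CACGTG was present in 2 of the 15, those of CITED2 and CCNG2, and in 7.26% of all windows. A match describes the letters only, and nothing is drawn from it about binding. The 250 bases before the start site are shown for TXNIP and HBP1, which hold GTAAACA there, for IRS2, which holds TGTTTTG, and for DDIT4, as a stretch without any of the motifs. The windows of BCL6 and DDIT4 held none of the 3 motifs, and FBXO32 was the member without a window. Capitals mark the FOXO motifs. The TXNIP stretch is chr1:145996580-145996829 on the minus strand, HBP1 is chr7:107168753-107169002 on the plus strand, IRS2 is chr13:109786584-109786833 on the minus strand and DDIT4 is chr10:72273674-72273923 on the plus strand.
TXNIP: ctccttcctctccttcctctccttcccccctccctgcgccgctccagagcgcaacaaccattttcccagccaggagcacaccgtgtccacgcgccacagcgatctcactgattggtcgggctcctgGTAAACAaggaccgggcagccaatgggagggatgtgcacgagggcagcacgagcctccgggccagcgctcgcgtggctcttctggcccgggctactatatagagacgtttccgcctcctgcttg
HBP1: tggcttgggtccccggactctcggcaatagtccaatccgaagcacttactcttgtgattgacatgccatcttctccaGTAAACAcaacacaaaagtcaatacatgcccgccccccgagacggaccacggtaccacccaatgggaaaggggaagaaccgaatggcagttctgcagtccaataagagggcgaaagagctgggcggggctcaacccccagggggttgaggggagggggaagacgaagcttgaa
IRS2: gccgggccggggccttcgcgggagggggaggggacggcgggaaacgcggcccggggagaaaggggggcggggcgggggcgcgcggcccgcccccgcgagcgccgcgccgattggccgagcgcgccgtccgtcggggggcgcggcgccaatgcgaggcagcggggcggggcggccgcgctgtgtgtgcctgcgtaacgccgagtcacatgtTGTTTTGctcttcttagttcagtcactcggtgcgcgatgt
DDIT4: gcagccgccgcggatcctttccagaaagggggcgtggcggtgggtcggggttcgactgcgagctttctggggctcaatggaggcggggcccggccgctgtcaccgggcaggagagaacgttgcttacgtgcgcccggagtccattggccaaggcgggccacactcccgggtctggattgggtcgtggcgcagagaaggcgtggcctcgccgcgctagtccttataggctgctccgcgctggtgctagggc
Counted from the first base of the start site as 0, the motif lay at positions −124 to −118 in TXNIP, −173 to −167 in HBP1 and −40 to −34 in IRS2.

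Values are deposited log2 signals, and a difference of 1 on this scale is a doubling. The background limit of an array was the 95th percentile of its 612 negative-control probe sets, which ran from 7.14 to 7.65, and 38.4% to 42.1% of the transcript probe sets lay above it. The treatment showed in FOSL1, which encodes a partner of JUN proteins and averaged 9.88 with EGF plus gefitinib, 13.88 with EGF and 9.87 in controls. DUSP6, a phosphatase that acts on ERK, averaged 11.07 with EGF plus gefitinib, 12.50 with EGF and 8.46 in controls. EGFR averaged 15.31 with EGF plus gefitinib, 14.44 with EGF and 14.40 in controls. Of 10 markers fixed for the epithelial line, 7 were measured and all 7, among them EGFR, KRT5, KRT14 and EPCAM, lay above the limit on every array. Their summed signal, on the log2 scale, was 17.91 to 17.95 with EGF plus gefitinib, 18.51 to 18.58 with EGF and 18.02 to 18.03 in controls. This order of groups was that of SFN, which averaged 15.43 with EGF plus gefitinib, 17.53 with EGF and 16.50 in controls. KRT5 averaged 16.78, 16.83 and 16.75 in these groups, and DSG3 12.71, 12.51 and 11.31. All 3 measured leukocyte markers, PTPRC among them, lay within the negative-control range on every array, as did 2 of 3 endothelial markers (PECAM1 and VWF) and 3 of 5 fibroblast markers. The summed signal of the 5 fibroblast markers was 9.06 to 9.50 with EGF plus gefitinib, 8.88 to 9.23 with EGF and 9.98 to 10.08 in controls. That of the 3 endothelial markers was 7.98 to 8.10 with EGF plus gefitinib, 6.16 to 6.54 with EGF and 7.44 to 7.81 in controls. Of these 3, CDH5 averaged 7.59 with EGF plus gefitinib, 5.03 with EGF and 7.25 in controls. Both its EGF values and 1 value of each other group lay within the negative-control range. Among the fibroblast markers, LUM lay above the limit on every array. It averaged 8.46 with EGF plus gefitinib, 8.14 with EGF and 9.48 in controls. The part of these cell types in the results was not tested.

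The first comparison asked how EGF changed the members in starved cells. Of the members, 9 were lower with EGF and 1, DDIT4, was higher. Where a fold could be given, the falls ran from 2.74-fold for CITED2, a transcriptional coregulator, to 31.4-fold for BCL6. DDIT4, which restrains the mTOR complex through TSC1 and TSC2, was 2.11-fold higher. Against this count of 9 lower, 5.30% of all probe sets were called lower, and against 1 higher, 6.61% were called higher, 11.9% in all (limma, adjusted p under 0.05). The members were chosen with earlier results of these arrays known, so these counts describe them and do not test them. Their median change was −2.05, against −0.03 over all probe sets. Shares of all probe sets, here and below, include those below the background limit, the larger part on every array. In a fit of the 9211 probe sets kept by a filter on dim ones, 1763 were called lower and 2182 higher. In RNA of a whole culture, fewer expressing cells and less RNA per cell cannot be told apart.

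Among the transcriptional repressors, BCL6 measured 7.83 and 7.53 on the EGF arrays, against 12.60 and 12.71 on the control arrays. The EGF values lay just above the limits of their arrays (7.46 and 7.29), and the groups were far apart. The difference was −4.97 ± 0.26 (SE, n = 2 arrays per group; limma, adjusted p = 0.000235). HBP1, a repressor that holds back entry into the cell cycle, measured 9.81 and 9.58 with EGF, against 12.39 and 12.42 in controls. This was a fall by 2.71 ± 0.19 (6.53-fold; limma, adjusted p = 0.000593) between groups that did not overlap. CITED2, which binds the coactivators CBP and p300 and limits hypoxia signalling, measured 10.36 and 10.65 with EGF, against 11.91 and 12.00 in controls, a fall by 1.45 ± 0.19 (limma, adjusted p = 0.00515).

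The members that act on metabolism and protein turnover were all lower with EGF. TXNIP, which inhibits thioredoxin and limits glucose uptake, measured 5.74 and 5.84 with EGF, against 10.39 and 10.11 in controls. Both EGF values lay within the negative-control range, so the fall was at least 7.32-fold, which is the control mean over the background limits of the EGF arrays. The fitted difference was −4.45 ± 0.18 (limma, adjusted p = 0.000128). FBXO32, the substrate receptor of a ubiquitin ligase known from muscle atrophy, measured 7.94 and 7.72 with EGF, against 11.17 and 11.00 in controls, a 9.53-fold fall (−3.25 ± 0.18; limma, adjusted p = 0.000323). These EGF values lay just above the limits of their arrays (7.46 and 7.29). GABARAPL1, a ubiquitin-like protein of autophagosomes, measured 7.29 and 7.79 with EGF, against 9.89 and 9.99 in controls. Only the second EGF value was above its limit, and the fall came to 5.29-fold (−2.40 ± 0.21; limma, adjusted p = 0.00142).

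Of the members that act within growth factor signalling, IRS2 and PIK3IP1 were lower with EGF and DDIT4 was higher. IRS2, an adaptor that links insulin receptors to PI3K, measured 5.59 and 5.76 with EGF, against 7.58 and 7.18 in controls. Both EGF values and the second control value were within the negative-control range, so no fold can be given, and the fitted difference was −1.71 ± 0.24 (limma, adjusted p = 0.00611). PIK3IP1, a membrane protein that inhibits the PI3K catalytic subunit, measured 5.50 and 5.76 with EGF, against 7.55 and 7.03 in controls, again with a single value above its limit. Its fitted difference was −1.66 ± 0.23 (limma, adjusted p = 0.00647). DDIT4 measured 12.98 and 13.01 with EGF, against 11.94 and 11.90 in controls, a rise of 1.08 ± 0.18 (limma, adjusted p = 0.0116) with all arrays well above background. CCNG2, a cyclin of arrested cells that does not drive division, measured 10.08 and 9.63 with EGF, against 11.25 and 11.38 in controls, a 2.75-fold fall (−1.46 ± 0.21; limma, adjusted p = 0.00678). The call of DDIT4 was lost when control 1, control 2, EGF 1 or EGF 2 was left out (adjusted p = 0.065 to 0.0753), and those of IRS2 (0.0505) and PIK3IP1 (0.0529) were lost without EGF 1.

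**Figure D1:**
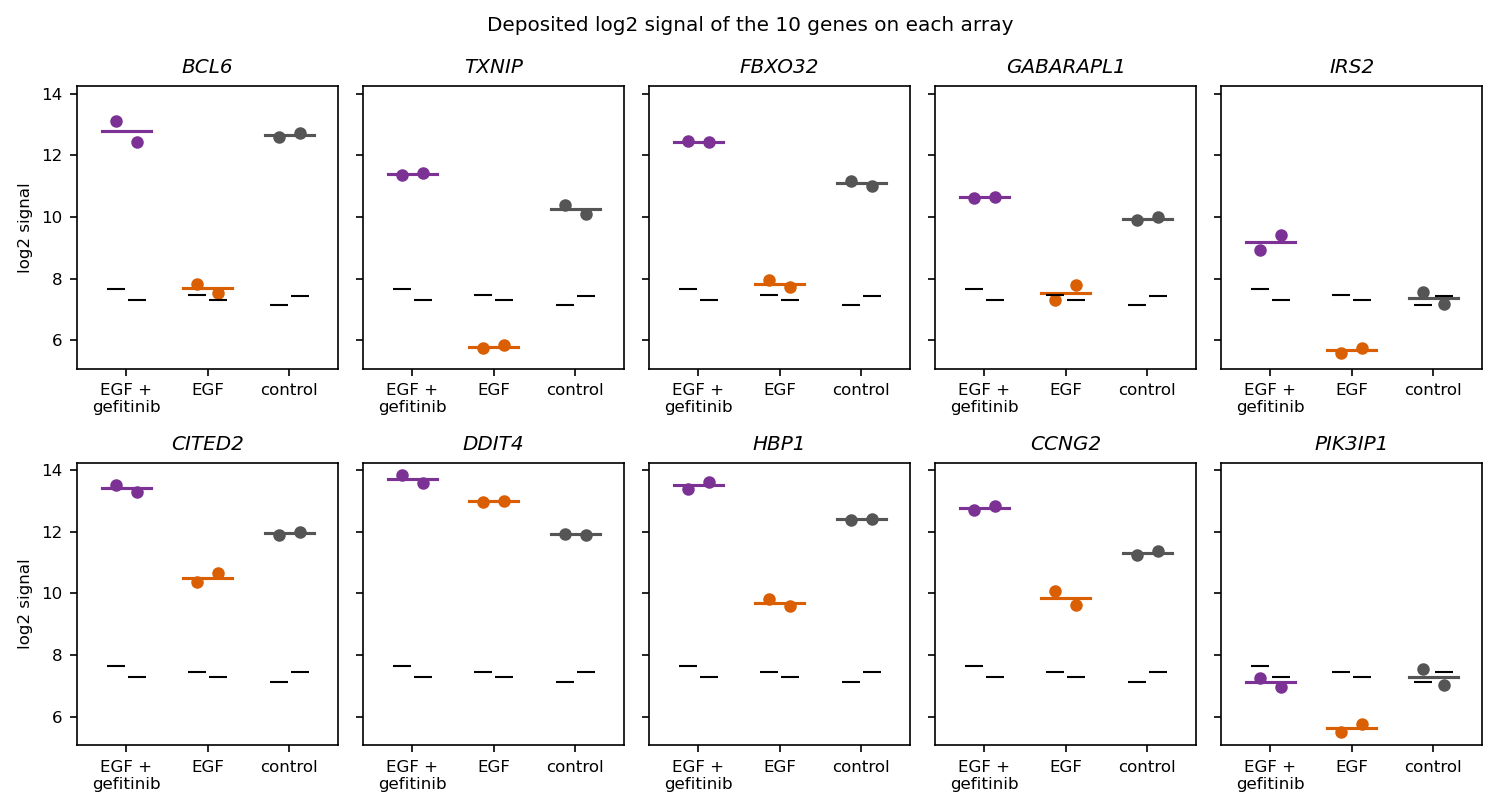
Deposited log2 signal (vertical axis) of the 10 genes on each of the 6 arrays, by group (horizontal axis: EGF plus gefitinib, EGF, control); points are arrays, coloured bars are means of 2 arrays and short black dashes are the background limits of the arrays. The other 9 genes have their lowest values on the EGF arrays, where TXNIP, IRS2 and PIK3IP1 lie below the limits, and DDIT4 has its lowest values on the control arrays.

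The second comparison set cells given both agents against cells given EGF alone. All 10 members were higher with EGF plus gefitinib than with EGF alone, against 8.86% of all probe sets called higher and 18.7% called in either direction (limma, adjusted p under 0.05). Their median change was 3.30, against 0.05 over all probe sets. Of the 9211 probe sets kept by the filter, 2295 were called higher and 2601 lower. This comparison shares its EGF arrays with the first, so the direction of one bears on that of the other, and the values of each are given side by side in the plot of the changes. BCL6 measured 13.12 and 12.43 with EGF plus gefitinib, against 7.83 and 7.53 with EGF, a 34.1-fold difference (5.09 ± 0.26; limma, adjusted p = 0.000188). TXNIP measured 11.35 and 11.42 with EGF plus gefitinib, against 5.74 and 5.84 with EGF, which is at least 16.2-fold (fitted 5.60 ± 0.18; limma, adjusted p = 3.52e-05). For both genes the groups were far apart, and both TXNIP values of the EGF group were within the negative-control range.

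Differences over 3 on the log2 scale were also found for FBXO32, HBP1, IRS2 and GABARAPL1. FBXO32 measured 12.45 and 12.43 with EGF plus gefitinib, against 7.94 and 7.72 with EGF (24.4-fold; limma, adjusted p = 6.01e-05). HBP1 measured 13.39 and 13.62 with EGF plus gefitinib, against 9.81 and 9.58 with EGF (14.0-fold; limma, adjusted p = 0.00015). Neither gene had overlapping groups. IRS2 measured 8.94 and 9.42 with EGF plus gefitinib, where both values cleared the limit, against 5.59 and 5.76 with EGF, a rise of at least 3.50-fold (fitted 3.51 ± 0.24; limma, adjusted p = 0.000339). GABARAPL1 measured 10.63 and 10.64 with EGF plus gefitinib, against 7.29 and 7.79 with EGF (8.54-fold; limma, adjusted p = 0.000361).

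CITED2 and CCNG2 rose by nearly the same amount. CITED2 measured 13.51 and 13.30 with EGF plus gefitinib, against 10.36 and 10.65 with EGF (2.90 ± 0.19; limma, adjusted p = 0.000317). CCNG2 measured 12.72 and 12.85 with EGF plus gefitinib, against 10.08 and 9.63 with EGF (2.93 ± 0.21; limma, adjusted p = 0.000408). PIK3IP1 measured 7.25 and 6.98 with EGF plus gefitinib, against 5.50 and 5.76 with EGF. All 4 of these values were within the negative-control range, so no fold is given, and the fitted difference was 1.49 ± 0.23 (limma, adjusted p = 0.00579). DDIT4 had the smallest difference of the members, with 13.83 and 13.58 against 12.98 and 13.01 in the EGF group (0.71 ± 0.18; limma, adjusted p = 0.0331). Its call was lost in a fit of the 4 arrays compared (limma, adjusted p = 0.0601), which is the same fit as without control 1 or control 2. It was also lost with the replicate number as a block (limma, adjusted p = 0.0534). Without EGF 1, EGF 2 or EGF plus gefitinib 1 it was lost as well, with differences of 0.69, 0.72 and 0.58.

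**Figure D2:**
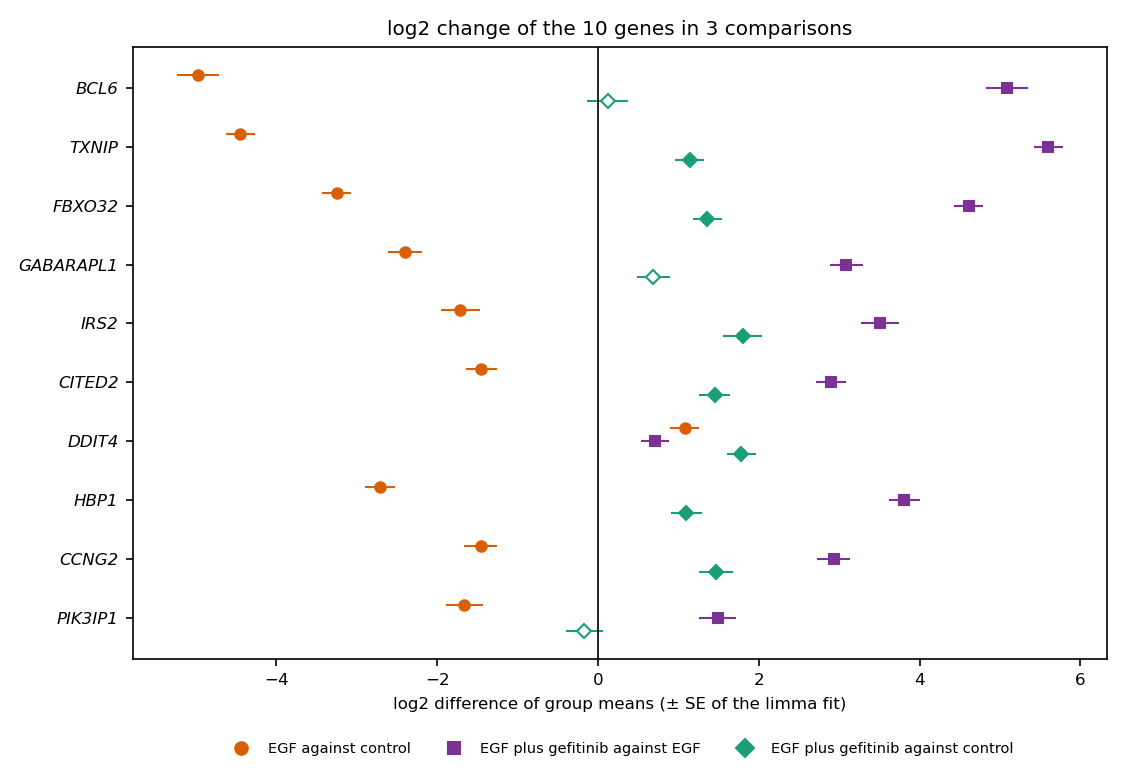
Difference of group means on the log2 scale (horizontal axis) with the standard error of the limma fit for the 10 genes (vertical axis) in 3 comparisons; filled symbols passed an adjusted p under 0.05 and open symbols did not. All squares (EGF plus gefitinib against EGF) lie above 0, from 0.71 for DDIT4 to 5.60 for TXNIP, the circle (EGF against control) lies above 0 for DDIT4 only, and the open diamonds (EGF plus gefitinib against control) are those of BCL6, GABARAPL1 and PIK3IP1.

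The third comparison set EGF plus gefitinib against the untreated starved cells, which asks whether the members lay at the control level or away from it. No group received gefitinib alone. Of the members, 7 were higher than in controls, against 2.19% of all probe sets called higher, and 0 were lower, against 1.70%, with 3.89% called in either direction (limma, adjusted p under 0.05). BCL6, GABARAPL1 and PIK3IP1 were not called. At an unadjusted p under 0.05 in the limma fit, 8 members were higher and 0 lower. In either direction, 4457 of all 21448 probe sets passed that threshold. Of the 9211 probe sets kept by the filter, 1230 were called higher and 1308 lower. The median change of the members was 1.25, against 0.01 over all probe sets. DDIT4 was 3.44-fold higher (1.78 ± 0.18; limma, adjusted p = 0.0091). IRS2 differed by 1.80 ± 0.24 (limma, adjusted p = 0.0166), with its second control value within the negative-control range, so that the size of this difference is uncertain. CCNG2 was 2.77-fold higher (1.47 ± 0.21), CITED2 2.73-fold (1.45 ± 0.19) and FBXO32 2.56-fold (1.36 ± 0.18), with adjusted p-values of 0.0184, 0.0166 and 0.0167 in the limma fit. TXNIP was 2.21-fold higher (1.14 ± 0.18; limma, adjusted p = 0.0262) and HBP1 2.15-fold (1.10 ± 0.19; limma, adjusted p = 0.0297).

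BCL6 averaged 12.78 ± 0.49 with EGF plus gefitinib, against 12.66 ± 0.08 in controls (SD, n = 2 each), and the groups overlapped. Its difference was 0.12, with a 95% interval from −0.49 to 0.73 (limma, adjusted p = 0.838), and it turned to −0.22 without EGF plus gefitinib 1. GABARAPL1 averaged 10.63 ± 0.01 with EGF plus gefitinib, against 9.94 ± 0.07 in controls (SD, n = 2 each). The groups did not overlap, but the difference of 0.69 missed the threshold (limma, adjusted p = 0.123; 95% interval 0.19 to 1.19). PIK3IP1 averaged 7.11 ± 0.19 with EGF plus gefitinib, against 7.29 ± 0.36 in controls (SD, n = 2 each), with overlapping groups and a 95% interval of the difference from −0.73 to 0.38 (limma, adjusted p = 0.729).

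Leaving out single arrays removed many of these calls. Across the fits that left out an array, the median change of the members ran from 1.20 to 1.34. None of the calls held without control 1, control 2 or EGF plus gefitinib 2. Over all probe sets, 834 were called with every array and 0, 8 and 0 in these fits. Without EGF plus gefitinib 1, 2 members (IRS2 and DDIT4) were called among 120 probe sets. With only the 4 arrays compared, which is the same fit as without EGF 1 or EGF 2, 5 members were called. TXNIP and HBP1 were not (limma, adjusted p = 0.0603 and 0.0609).

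The members thus fell into 3 orders of their group means. In 8 of them the mean was highest with EGF plus gefitinib, next in controls and lowest with EGF. In BCL6 and GABARAPL1, which are among these 8, the upper 2 groups did not differ at the threshold. DDIT4 alone was lowest in controls, with EGF next and EGF plus gefitinib highest, and each step was called. PIK3IP1 alone was highest in controls, but its control and EGF plus gefitinib means did not differ at the threshold.

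Other genes of the pathway were taken from lists made from general knowledge of it, with earlier results of these data known. Counts within these lists describe them and do not test them. Of the 4 FOXO genes, only FOXO3 was above background. It measured 11.58 and 11.92 with EGF plus gefitinib, 10.88 and 10.64 with EGF and 10.69 and 10.66 in controls. It was 1.98-fold higher with EGF plus gefitinib than with EGF (0.99 ± 0.20; limma, adjusted p = 0.0144), a call lost without EGF 2 or EGF plus gefitinib 2 (adjusted p = 0.0652 to 0.0939). EGF plus gefitinib against control gave 1.07 ± 0.20 for FOXO3 (2.10-fold; limma, adjusted p = 0.0372). That call was lost in every fit that left out an array and with the replicate number as a block. EGF against control gave 0.08, with a 95% interval from −0.39 to 0.55. FOXO1, FOXO4 and FOXO6 lay within the negative-control range on every array, and of these FOXO4 differed by −0.94 ± 0.18 for EGF against control (limma, adjusted p = 0.0179), a call lost without control 1, control 2, EGF 1 or EGF 2 (adjusted p = 0.0686 to 0.116).

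Of 30 other genes known as FOXO targets in various tissues, 27 were measured, and 11 of these lay within the negative-control range on every array. With EGF, 7 of the 27 fell and 2 rose, against 5.30% and 6.61% of all probe sets, and their median change was −0.27. ERBB3, a receptor partner of EGFR, measured 9.13 and 9.01 with EGF, against 11.47 and 11.50 in controls (−2.42 ± 0.18; limma, adjusted p = 0.000839). TNFSF10, the death ligand TRAIL, fell 4.09-fold and RBL2, a pocket protein of quiescent cells, 3.02-fold. CDKN1A, the cell cycle inhibitor p21, went the other way and rose 4.58-fold (2.19 ± 0.27; limma, adjusted p = 0.00416). The other genes that fell were CAT, ULK1, MXI1 and BCL2L11, and the other that rose was RICTOR. The count of falls was as low as 3 in fits that each left out 1 control or EGF array, and BCL2L11 and MXI1 lost their calls in each of these fits. The call of CAT was lost without EGF 1 (adjusted p = 0.0524), that of ULK1 without control 2, EGF 1 or EGF 2 (adjusted p = 0.0891 to 0.0949) and that of RICTOR without any 1 of the 6 arrays.

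With EGF plus gefitinib against EGF, 12 of the 27 rose and 1 fell, against 8.86% and 9.81% of all probe sets, and their median change was 0.48. ERBB3 rose 5.16-fold (limma, adjusted p = 0.000553) and MXI1, an antagonist of MYC, 3.30-fold (limma, adjusted p = 0.00117). GADD45A, a stress and growth arrest gene, measured 12.10 and 12.17 with EGF plus gefitinib, against 10.36 and 10.62 with EGF (1.64 ± 0.19; limma, adjusted p = 0.00193). CDKN1B, the cell cycle inhibitor p27, measured 10.55 and 10.80 with EGF plus gefitinib, against 9.21 and 9.02 with EGF (1.56 ± 0.20; limma, adjusted p = 0.00243). Neither GADD45A (0.11, 95% interval −0.34 to 0.57) nor CDKN1B (−0.27, 95% interval −0.73 to 0.19) was called for EGF against control. BNIP3, a mitophagy receptor, was the 1 that fell, by 1.17 ± 0.19. Against control, 5 of the 27 were higher with EGF plus gefitinib, namely GADD45A (3.38-fold), CDKN1A (2.81-fold), RICTOR (2.53-fold), CDKN1B (2.45-fold) and MAP1LC3B (1.99-fold), and TNFSF10 was 2.23-fold lower. At most 1 of these 5 stayed called, and TNFSF10 did not, in any fit that left out an array.

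**Figure D3:**
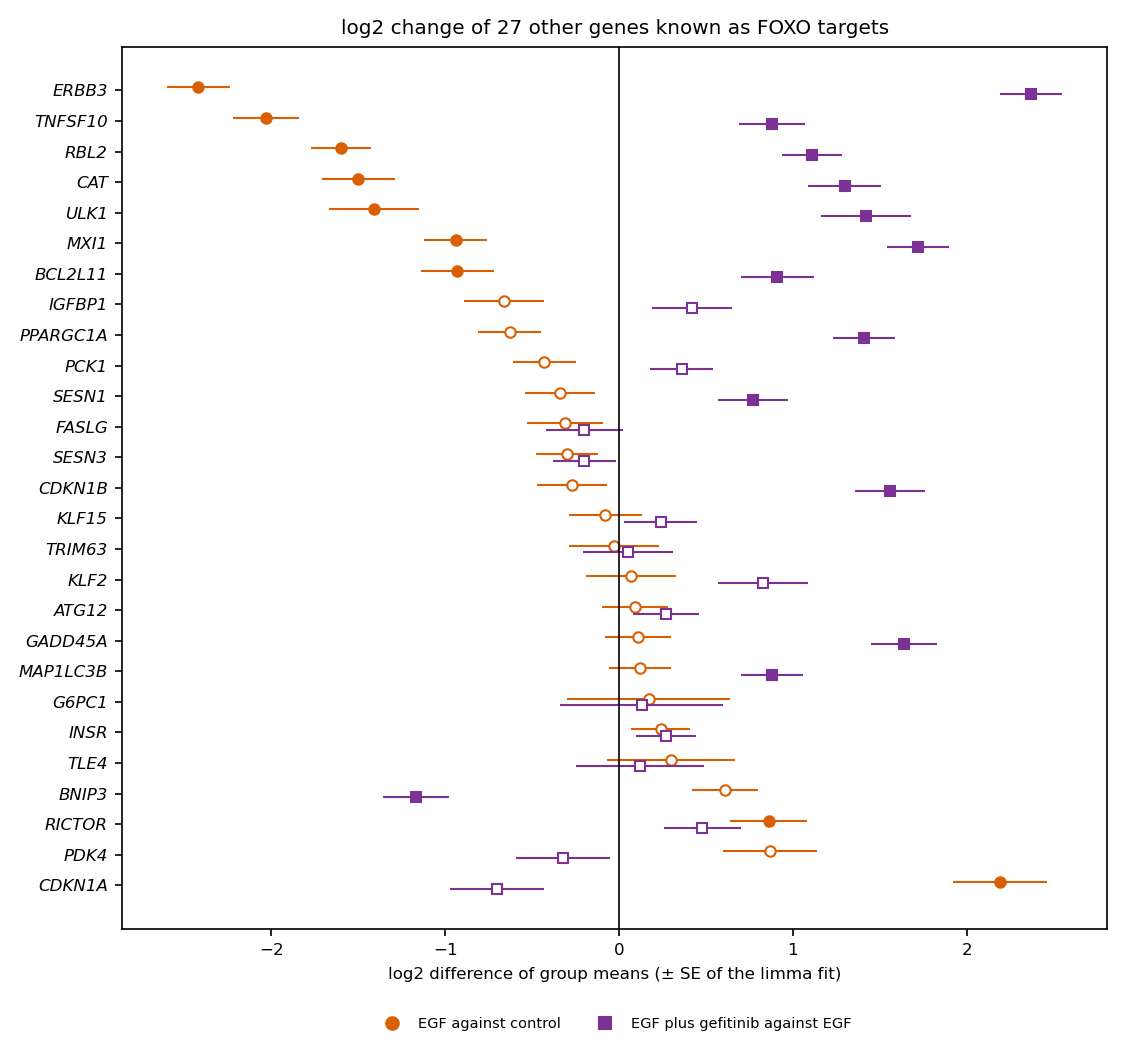
Difference of group means on the log2 scale (horizontal axis) with the standard error of the limma fit for 27 other genes known as FOXO targets (vertical axis, ordered by the EGF against control value); circles are EGF against control, squares are EGF plus gefitinib against EGF, and filled symbols passed an adjusted p under 0.05. The values run from −2.42 for ERBB3 to 2.19 for CDKN1A for EGF against control.

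Among 18 measured genes, of 23 listed, of the PI3K, AKT and mTOR pathway, 2 rose and 1 fell with EGF, against 6.61% and 5.30% of all probe sets. The fall was that of PIK3R1, the p85 alpha regulatory subunit, with 8.16 and 8.38 with EGF against 10.17 and 10.32 in controls (3.92-fold; limma, adjusted p = 0.002). The rises were those of TRIB3, a pseudokinase that binds AKT, by 1.55 ± 0.21 and of SGK1, a kinase related to AKT, by 1.48 ± 0.30. The call of SGK1 was lost whichever control or EGF array was left out (adjusted p = 0.0574 to 0.127). With EGF plus gefitinib against EGF, 3 rose and 3 fell, against 8.86% and 9.81% of all probe sets, among them AKT1 (−1.24 ± 0.19; limma, adjusted p = 0.00563) and AKT2 (−0.74 ± 0.17; limma, adjusted p = 0.0246), and TSC1 (0.79 ± 0.18; limma, adjusted p = 0.0213). The calls of AKT2 and TSC1 were lost without EGF 1 or EGF 2, that of AKT2 also without EGF plus gefitinib 2 and that of TSC1 also without EGF plus gefitinib 1 (adjusted p = 0.0791 to 0.118), and 0 to 3 genes were called higher when single arrays were left out. The phosphatase PHLPP2 fell at least 1.73-fold, a call lost without EGF 2. The related PHLPP1 rose by 1.74 ± 0.46 (limma, adjusted p = 0.0403). It measured 11.05 and 12.69 with EGF plus gefitinib, against 10.07 and 10.20 with EGF. That call was lost with only the 4 arrays compared and without EGF 1 or EGF 2. PIK3R1 rose by 0.82 ± 0.20 (limma, adjusted p = 0.0279), a call lost without EGF 1, EGF 2 or EGF plus gefitinib 2. Against control, TRIB3 was 4.57-fold higher and PIK3R1 2.22-fold lower with EGF plus gefitinib. That call of TRIB3 was lost without control 1, control 2 or EGF plus gefitinib 2 (adjusted p = 0.056 to 0.0741), and that of PIK3R1 in every fit that left out an array (adjusted p = 0.0612 to 0.159). The median change of the list was 0.06, −0.13 and −0.05 for EGF against control, EGF plus gefitinib against EGF and EGF plus gefitinib against control, beside −0.03, 0.05 and 0.01 over all probe sets.

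Of 18 family relatives of the members, 9 were within the negative-control range on every array, namely BCL6B, IRS1, IRS4, ARRDC2, ARRDC4, CITED1, DDIT4L, MAP1LC3A and MAP1LC3C. With EGF 4 fell and 0 rose, against 5.30% and 6.61% of all probe sets. GABARAP, the nearest relative of GABARAPL1, measured 12.32 and 12.48 with EGF, against 13.54 and 13.41 in controls (−1.07 ± 0.19; limma, adjusted p = 0.0153), while GABARAPL2 differed by 0.01 (95% interval −0.43 to 0.46). CCNG1 and CCNI, cyclins related to CCNG2, fell by 1.08 ± 0.18 each, and ARRDC3, an arrestin of the TXNIP family, by 1.18 ± 0.21. All 4 lost their calls without control 1, EGF 1 or EGF 2, and all but ARRDC3 also without control 2 (adjusted p = 0.0504 to 0.0991). The other measured relatives, ARRDC1 (−0.27), FBXO25 (−0.21) and CITED4 (0.32), were not called.

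With EGF plus gefitinib against EGF, CCNG1 rose 2.84-fold (limma, adjusted p = 0.00201), CCNI 1.93-fold, MAP1LC3B, a marker of autophagosomes that also stands among the FOXO targets, 1.84-fold and GABARAP 1.63-fold. These were 4 of the 18 relatives, against 8.86% of all probe sets called higher, and the count was between 1 and 3 when single arrays were left out, and GABARAP was called in none of those fits. MAP1LC3B was not called without EGF 1, EGF 2 or EGF plus gefitinib 2 (adjusted p = 0.0594 to 0.0842), nor CCNI without EGF 1 (0.0781). Against control, MAP1LC3B alone was called (1.99-fold; limma, adjusted p = 0.0328), in 0 of the fits that left out an array.

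Of 15 measured protein partners of the members, MLX and ATG4A rose with EGF and 0 fell, against 6.61% and 5.30% of all probe sets. MLX pairs with the glucose-sensing factor MondoA, the gene product of MLXIP, which is known to drive TXNIP. MLX measured 11.86 and 11.98 with EGF, against 9.87 and 9.47 in controls (4.77-fold; limma, adjusted p = 0.0019), and 10.33 and 9.96 with EGF plus gefitinib, 3.43-fold lower than with EGF (limma, adjusted p = 0.00243). MLXIP itself differed by 0.17 for EGF against control (95% interval −0.29 to 0.64), and TXN, the thioredoxin that TXNIP inhibits, by 0.24 (95% interval −0.17 to 0.66). ATG4A, a protease that processes GABARAP proteins, measured 6.29 and 6.59 with EGF plus gefitinib, both within the negative-control range, against 9.31 and 9.10 with EGF. It was at least 3.32-fold lower (limma, adjusted p = 0.000361). Its rise with EGF was 2.48-fold, a call lost without EGF 1 (adjusted p = 0.0604). CREBBP, the coactivator that CITED2 binds, was 2.76-fold higher with EGF plus gefitinib than with EGF (limma, adjusted p = 0.00262), and CUL1, the cullin of SCF ubiquitin ligases, 1.77-fold lower (limma, adjusted p = 0.0219). The call of CUL1 was lost without EGF 1, EGF 2 or EGF plus gefitinib 1. In this comparison 1 of the 15 rose and 3 fell, against 8.86% and 9.81% of all probe sets. Against control, 1 was higher and 1 lower with EGF plus gefitinib, against 2.19% and 1.70%. CREBBP was 2.12-fold higher (limma, adjusted p = 0.0316) and ATG4A at least 1.34-fold lower (limma, adjusted p = 0.0166). Both calls were lost whichever control or EGF plus gefitinib array was left out.

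The genes with profiles nearest to BCL6 and TXNIP were looked for among 17677 genes outside the members. Each profile was centred on its mean over the 6 arrays, and nearness was the root mean square distance in log2 units. BCL6 was nearest to FAXDC2 (0.51), MPPED2 (0.61), CYP1B1 (0.65) and YPEL3 (0.67). TXNIP was nearest to FAXDC2 (0.37), LMO4 (0.59), TCP11L2 (0.66) and CYP1B1 (0.67). FAXDC2, the nearest to both, measured 12.03 and 11.36 with EGF plus gefitinib, 6.76 and 6.20 with EGF, within the negative-control range, and 10.38 and 10.51 in controls. Both EGF values of CYP1B1 (5.39 and 5.64) and the first of TCP11L2 (7.01) lay within that range too. Distances that involve these genes or TXNIP rest partly on such values. MPPED2 was 2.15-fold lower with EGF plus gefitinib than in controls (limma, adjusted p = 0.0388), a call lost in every fit that left out an array, while the other genes named here were not called in that comparison. BCL6 and TXNIP lay 0.50 apart, and FBXO32 lay 0.53 from TXNIP and 0.75 from BCL6. DDIT4 lay farthest of the members, 2.56 from BCL6 and 2.47 from TXNIP. A gene with large changes can only be near another with large changes by this measure, and 6 arrays in 3 groups leave few distinct profiles.

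**Figure D4:**
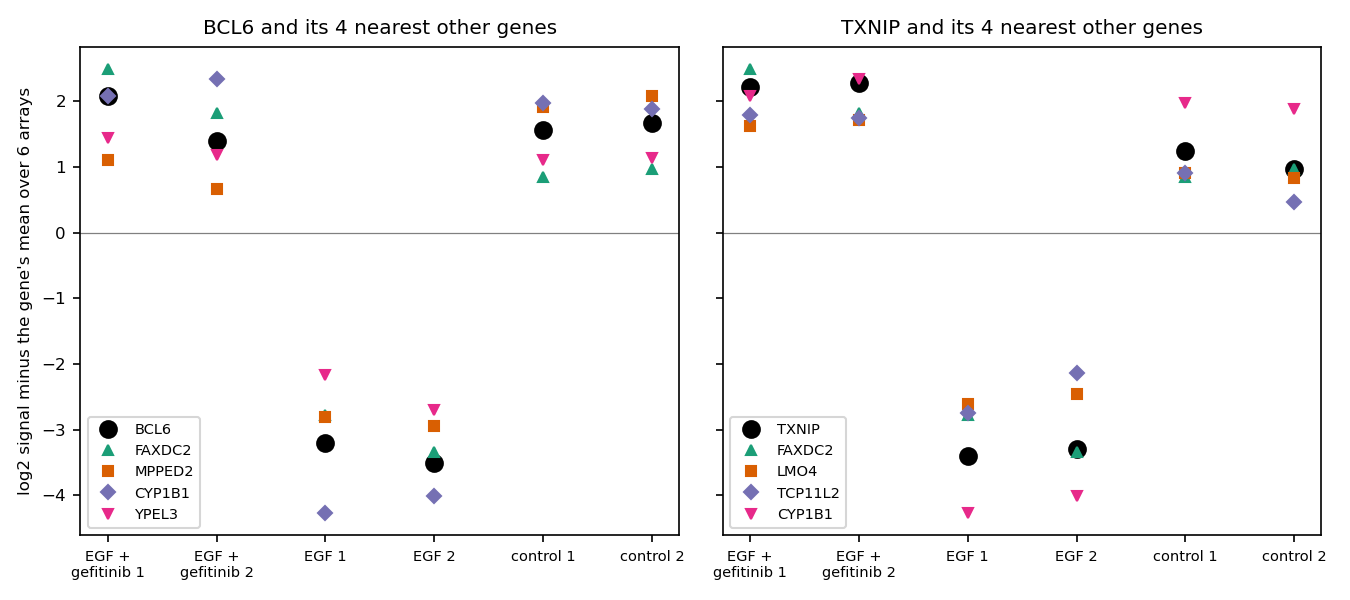
Log2 signal minus the gene's own mean over the 6 arrays (vertical axis) on each array (horizontal axis) for BCL6 (left) and TXNIP (right) with the 4 nearest other genes; each point is an array. All genes shown lie below 0 on both EGF arrays and above 0 on the other arrays, and CYP1B1 lies lowest on the EGF arrays. The EGF values of CYP1B1, FAXDC2 and TXNIP were within the negative-control range.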

How the data were processed

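RNA of 6 A431 samples was measured on 1 array each. The authors deposited log2 signals, a scale taken from their range (1.58 to 18.9), and the submitters' processing notes name Transcriptome Analysis Console. How that program corrected, summarized and normalized the arrays, and which version ran, was not stated in the labels. Values were used as deposited, and 0 columns lacked a sample.

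Of 24351 probe sets, 2903 controls were left out and 21448 transcript probe sets tested without a filter. The annotation gave 1 symbol for 17709. Groups were compared with limma 3.58.1 in R 4.3.3 (lmFit and eBayes, 3 group means, 3 residual and 4.22 prior degrees of freedom), two-sided, with Benjamini-Hochberg adjustment over all 21448, called under 0.05. The fit was checked on simulated data. An exact permutation test of 2 against 2 arrays cannot go below 0.333. Where neither array of a group exceeded its negative-control limit, a bound replaces the fold. The number of arrays limits the precision.

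The members and lists were chosen with earlier results of these data known. Named genes were all members, the FOXO genes, relatives of the members, up to 4 called genes of the other lists per comparison by the moderated statistic, the 4 genes nearest to BCL6 and to TXNIP, and FOSL1, DUSP6 and EGFR as a check. The SFN, KRT5, DSG3, CDH5, LUM, CAT, ULK1, BCL2L11, BNIP3, PHLPP1, MLXIP and TXN values were named outside that rule, after their values were seen. Coordinates are from the RefSeq promoter table, and no coordinates of the probe sets were used.

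The alternatives were array medians set equal, quantile normalization, a filter on dim probe sets, only the 4 arrays compared, an intensity trend, the replicate number as a block, and each array left out. Those for the other lists were chosen after the data were seen.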

Additional observations from a re-analysis of the deposited data

How the results depend on the processing

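With 2 arrays a group, the calls of EGF plus gefitinib against control were those most open to the processing. For EGF against control, 113 of the 119 alternative values of single members kept their direction and side of the threshold, for EGF plus gefitinib against EGF 112 of 119, and for EGF plus gefitinib against control 81 of 119. These values are not all separate. Leaving out either array of the group not compared gives the same fit as only the 4 arrays compared. Leaving out each array in turn reversed BCL6 (−0.22 to 0.46) and PIK3IP1 (−0.43 to 0.08), the first without EGF plus gefitinib 1 and the second without control 1, both for EGF plus gefitinib against control and neither called in any fit. Leaving out each array in turn gave 7 to 9 members lower and 0 to 1 higher for EGF against control, 9 to 10 higher for EGF plus gefitinib against EGF, and 0 to 5 higher for EGF plus gefitinib against control, where the smaller fits called as few as 0 probe sets of all. The median change of the members ran from −2.19 to −1.92, 3.18 to 3.47 and 1.20 to 1.34 in these fits. A filter on dim probe sets, which left 9211 probe sets and 9 members (PIK3IP1 was left out), moved the median to −2.40 for EGF against control and 3.51 for EGF plus gefitinib against EGF. GABARAPL1 was called for EGF plus gefitinib against control with that filter (adjusted p = 0.0285) and with an intensity trend (adjusted p = 0.0303).

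Over all probe sets, the 834 calls of EGF plus gefitinib against control became 247 with only the 4 arrays compared, 333 with the replicate block, 2538 with the filter and 2770 with the trend. For EGF against control, 2554 became 3945 with the filter and 4237 with the trend. Replicate numbers of the labels do not mark a shared culture, and same-numbered arrays deviated from their group means with correlations of −0.04 to 0.02. With the replicate block, 9 members were lower and 1 higher with EGF, 9 were higher with EGF plus gefitinib than with EGF (DDIT4 at 0.71 was not called), and 5 were higher than in controls (TXNIP at 1.14 and HBP1 at 1.10 were not called). No member had a second probe set, so that alternative could not be run.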

Other observations

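The labels give a harvest at 30 min, which allows simple arithmetic on the falls with EGF if that time counts from EGF. If synthesis of a transcript had stopped at once when EGF was added, BCL6 would have needed a half-life of 6.0 min to reach its EGF level, FBXO32 of 9.2 min, HBP1 of 11.1 min, GABARAPL1 of 12.5 min, CCNG2 of 20.5 min and CITED2 of 20.6 min. For TXNIP the bound on its fall gives a half-life of 10.4 min at most. Any synthesis that went on would shorten these values. The EGF values of BCL6 and FBXO32 lay just above the background limits, and the first of GABARAPL1 below its limit. The half-lives given for these genes are therefore uncertain. Transcript half-lives were not measured here, and whether 30 min counts from EGF, from gefitinib or from both was not stated in the labels.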
